A study of Homo sapiens with 31 samples.

Results

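The human collagen genes were examined in 4 groups of ovarian cancer cell line libraries. Members were all entries of the FPKM table whose symbol reads COL, a number, A and a number, which gave 44 of the 19221 genes used. There were 7 libraries of C13* shCON, and 8 each of C13* shCEBPB, of A2780 and of A2780 OlaR. C13* and A2780 are labelled as ovarian carcinoma and adenocarcinoma lines, and the study itself names the origin of C13* as a limit of the model. C13* cells carried either a control hairpin or a lentiviral hairpin against CEBPB, the gene of the transcription factor C/EBPβ. A2780 was the untreated parent line. Its olaparib-resistant form, OlaR, came from culture in rising olaparib, an inhibitor of PARP, until the IC50 reached 30 times that of the parent. All groups were grown in the same medium with serum. The labels call each group by 1 line and do not say whether shCEBPB or OlaR is a single clone, or whether replicates were separate cultures, so p-values measure the spread between these libraries only. Values are FPKM, fragments per kilobase of transcript and per unit of mapped library, which can be compared between genes because they are set per length.

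Collagens are secreted proteins of 3 chains wound into a triple helix, in which glycine recurs at a fixed interval. Chains of the fibrillar types build the fibrils of connective tissue, and type IV builds the sheet of the basement membrane below epithelia. Type XVII fastens epithelial cells to that sheet, and type VII ties the sheet to the fibrils below. The chains are hydroxylated and folded in the endoplasmic reticulum, trimmed after secretion, cross-linked outside the cell, bound by receptors and cut by metalloproteinases. Ovarian carcinoma cells grow in a collagen-rich matrix made by themselves and by stromal cells.

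The libraries did not group by cell line, and the labels of whole groups may be exchanged. Over all genes, Pearson's r of log2(FPKM + 1) was 0.994 (median over library pairs) between shCON and OlaR, 0.888 between shCON and shCEBPB and 0.854 between A2780 and OlaR, while within groups the medians were 0.996 to 0.998. One shCON library was labelled A2780 in 1 field, and it correlated with the other shCON libraries at 0.998. CEBPB itself had 75.2 to 101 FPKM in shCON and 30.2 to 58.7 in shCEBPB, so that no libraries of the pair overlapped. It had 85.6 to 111 FPKM in A2780 and 97.1 to 127 in OlaR. Groups are named as labelled throughout, and each difference below is one between libraries so labelled. The column codes of the libraries begin with C in OlaR, CS in shCON, O in A2780 and R in shCEBPB. What these letters stand for is not given. An exchange of labels and an effect of the knockdown or of resistance cannot be told apart here. The squamous markers TP63, KRT5 and KRT14 summed to 1499 to 1768 FPKM in shCON and 1714 to 2083 in OlaR, and to at most 0.316 in shCEBPB and 0.191 in A2780. EPCAM, which marks epithelial cells, had at least 102 FPKM in every shCON and OlaR library and at most 1.56 in the other libraries, which are labelled adenocarcinoma too. CDH1 and KRT19 followed EPCAM, and KRT8 and KRT18 did not, with medians of 889 and 525 FPKM in shCEBPB, 461 and 318 in shCON, 496 and 292 in OlaR and 5.87 and 81.3 in A2780. A2780 libraries also held PTPRC, a blood cell marker, at 75.7 to 103 FPKM, and PTPRC reached at most 0.0144 elsewhere. VIM, a mesenchymal marker, had 784 to 827 FPKM in A2780, 328 to 360 in shCEBPB, at most 10.5 in shCON and at most 0.265 in OlaR. The mesenchymal genes CDH2 and FN1 had other orders, with median CDH2 at 58.2 FPKM in A2780, 7.16 in shCEBPB, 16.6 in shCON and 18.2 in OlaR, and median FN1 at 0.537 in A2780, 7.0 in shCEBPB, 7.85 in shCON and 7.71 in OlaR. The endothelial markers PECAM1, CDH5 and KDR summed to at most 2.28 in any library. The sum of FPKM per library ranged from 417556 to 454578. Read depth is not given in the values, and the steps of low values put the deepest library at 1.42 times the shallowest.

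Over the 44 collagen genes, as a description over genes that share their libraries, median r was 0.986 between shCON and OlaR, 0.417 between shCON and shCEBPB, 0.114 between A2780 and OlaR and 0.152 between A2780 and shCEBPB.

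The collagen genes carry their repeat in their exons. In GENCODE 44, 24.8% of the internal coding exons of the 44 genes were 54 bp long, which codes for 6 triplets with glycine, against 0.446% in the 20002 other protein-coding genes. Lengths that were a multiple of 9 bp made up 64.1% and 13.5%. Fibrillar genes held the 54-bp exon most often, at 48.6%, and type IV genes seldom, at 4.23%.

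**Figure D1:**
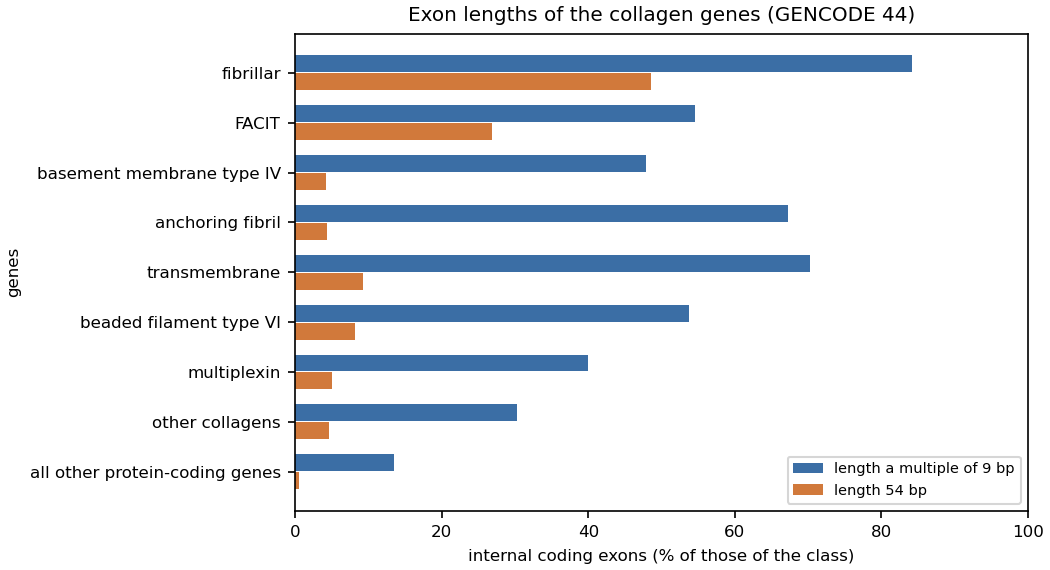
Share of internal coding exons that are 54 bp long or a multiple of 9 bp (x axis, percent), for each collagen class and for all other protein-coding genes. The 54-bp share was 48.6% in fibrillar genes, 26.8% in FACIT genes and 0.446% outside the family.

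Type IV genes lie in pairs that face away from each other. COL4A1 (chromosome 13, 110148963 to 110307157, minus strand) and COL4A2 (110305812 to 110513209, plus strand) overlap in their GENCODE 44 spans. Their RefSeq starts on hg38 are 127 bp apart. The RefSeq starts of COL4A6 and COL4A5 on chromosome X are 380 bp apart, taking the COL4A6 start nearest to COL4A5. Those of COL4A4 and COL4A3 on chromosome 2 are 419 bp apart. The stretch between the first pair and the last 250 bases of the second are shown because their genes are compared below, followed by the 250 bases before COL17A1 and COL7A1, the genes of the epithelial anchors. The first pair is read on the plus strand at chr13:110307158-110307283, the second on the plus strand at chrX:108439588-108439837, COL17A1 on the minus strand at chr10:104085881-104086130 and COL7A1 on the minus strand at chr3:48595330-48595579, all on hg38. Capitals mark CCAAT, the GC box GGGCGG and the TATA box TATAAA on either strand, and no marked motif overlaps another.
COL4A1 to COL4A2: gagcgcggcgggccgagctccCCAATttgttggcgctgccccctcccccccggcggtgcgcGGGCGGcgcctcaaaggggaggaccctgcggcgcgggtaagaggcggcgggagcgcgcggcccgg
COL4A6 to COL4A5: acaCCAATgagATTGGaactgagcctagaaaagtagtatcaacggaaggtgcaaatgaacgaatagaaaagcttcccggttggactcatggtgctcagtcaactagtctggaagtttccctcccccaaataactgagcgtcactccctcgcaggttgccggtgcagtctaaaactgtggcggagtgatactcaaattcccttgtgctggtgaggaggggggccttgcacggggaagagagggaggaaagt
COL17A1: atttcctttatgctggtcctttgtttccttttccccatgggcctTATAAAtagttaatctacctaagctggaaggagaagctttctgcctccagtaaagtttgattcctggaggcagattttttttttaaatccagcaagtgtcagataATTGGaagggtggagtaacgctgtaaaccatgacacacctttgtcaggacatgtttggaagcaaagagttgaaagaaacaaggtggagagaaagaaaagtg
COL7A1: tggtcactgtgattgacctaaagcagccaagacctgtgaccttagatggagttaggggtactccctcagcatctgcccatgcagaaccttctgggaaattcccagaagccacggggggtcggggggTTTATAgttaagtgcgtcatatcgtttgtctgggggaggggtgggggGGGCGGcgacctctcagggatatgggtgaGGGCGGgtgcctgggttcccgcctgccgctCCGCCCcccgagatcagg
The stretch between COL4A1 and COL4A2 had 80.2% G and C, and the COL17A1 stretch 40.4%. The letters TATAAA, on either strand, were in the stretches of COL17A1 and COL7A1 and not in the type IV stretches shown. They lay near the far end of the COL17A1 stretch and near the middle of the COL7A1 stretch. Their distance from the start was not used, and whether they act as a TATA box was not tested. Neither TTNNGNAA, a C/EBP-type motif, nor TGANTCA, an AP-1-type motif, was in these 4 stretches, which says only that these letters are not there. The RefSeq window of COL17A1, which runs 50 bases past the start, held TTNNGNAA once, and the window of COL7A1 did not. In RefSeq promoter windows of GRCh38.p14, 250 bases before to 50 after a start, 32 of the 44 genes had 44 windows. CCAAT was in 31.8% of these and in 34.6% of all 35116 windows, the GC box in 54.5% and 45.0%, the TATA box in 18.2% and 11.5%, TTNNGNAA in 27.3% and 36.8%, and TGANTCA in 2.27% and 7.71%.

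The 4 groups held different sets of collagen mRNA. Summed collagen FPKM was 217 at lowest, 236 at the median and 244 at highest in shCON, 372, 524 and 594 in shCEBPB, 899, 994 and 1020 in A2780, and 157, 177 and 189 in OlaR. No group's range overlapped another's, and A2780 stood highest. In A2780, 2 fibrillar genes made most of the sum, COL5A2 at 42.3 to 46.4% and COL3A1 at 35.2 to 37.0%. In shCON the transmembrane gene COL17A1 made 56.9 to 59.0%, and in OlaR 39.7 to 43.6%. No gene led in this way in shCEBPB, where COL4A2 made 16.2 to 20.3%, COL7A1 11.8 to 15.1% and COL5A1 12.2 to 13.8%. Of the 44 genes, 10 to 13 had at least 1 FPKM in an shCON library, 15 to 17 in shCEBPB, 19 to 21 in A2780 and 11 to 13 in OlaR.

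**Figure D2:**
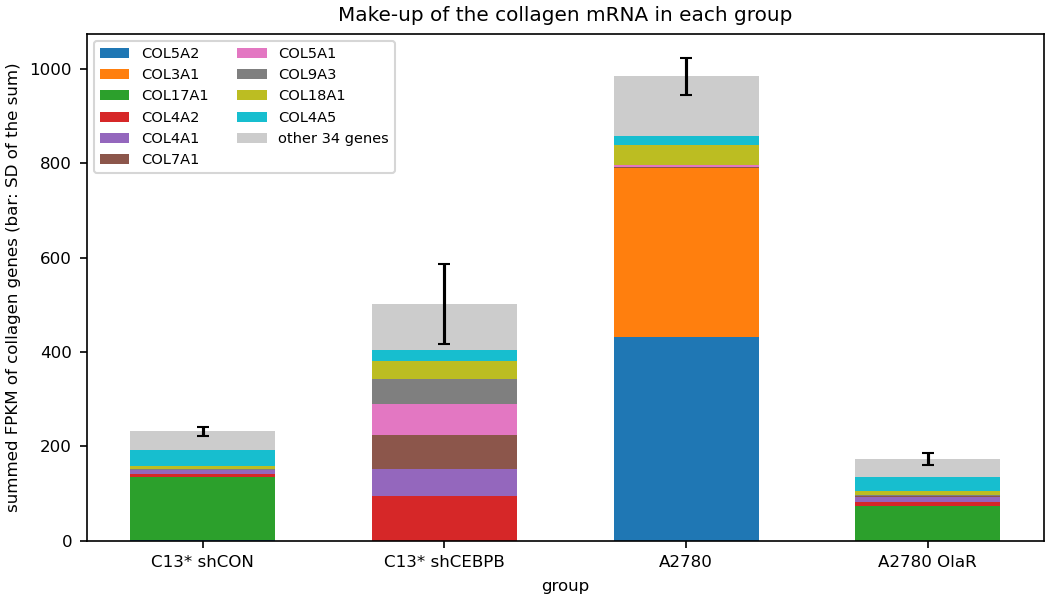
Summed FPKM of the 44 collagen genes (y axis) in each group, as group means split by gene, with the SD of the sum over libraries as error bar. COL5A2 and COL3A1 fill most of the A2780 bar, COL17A1 most of the shCON bar, and no single gene fills the shCEBPB bar.

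**Figure D3:**
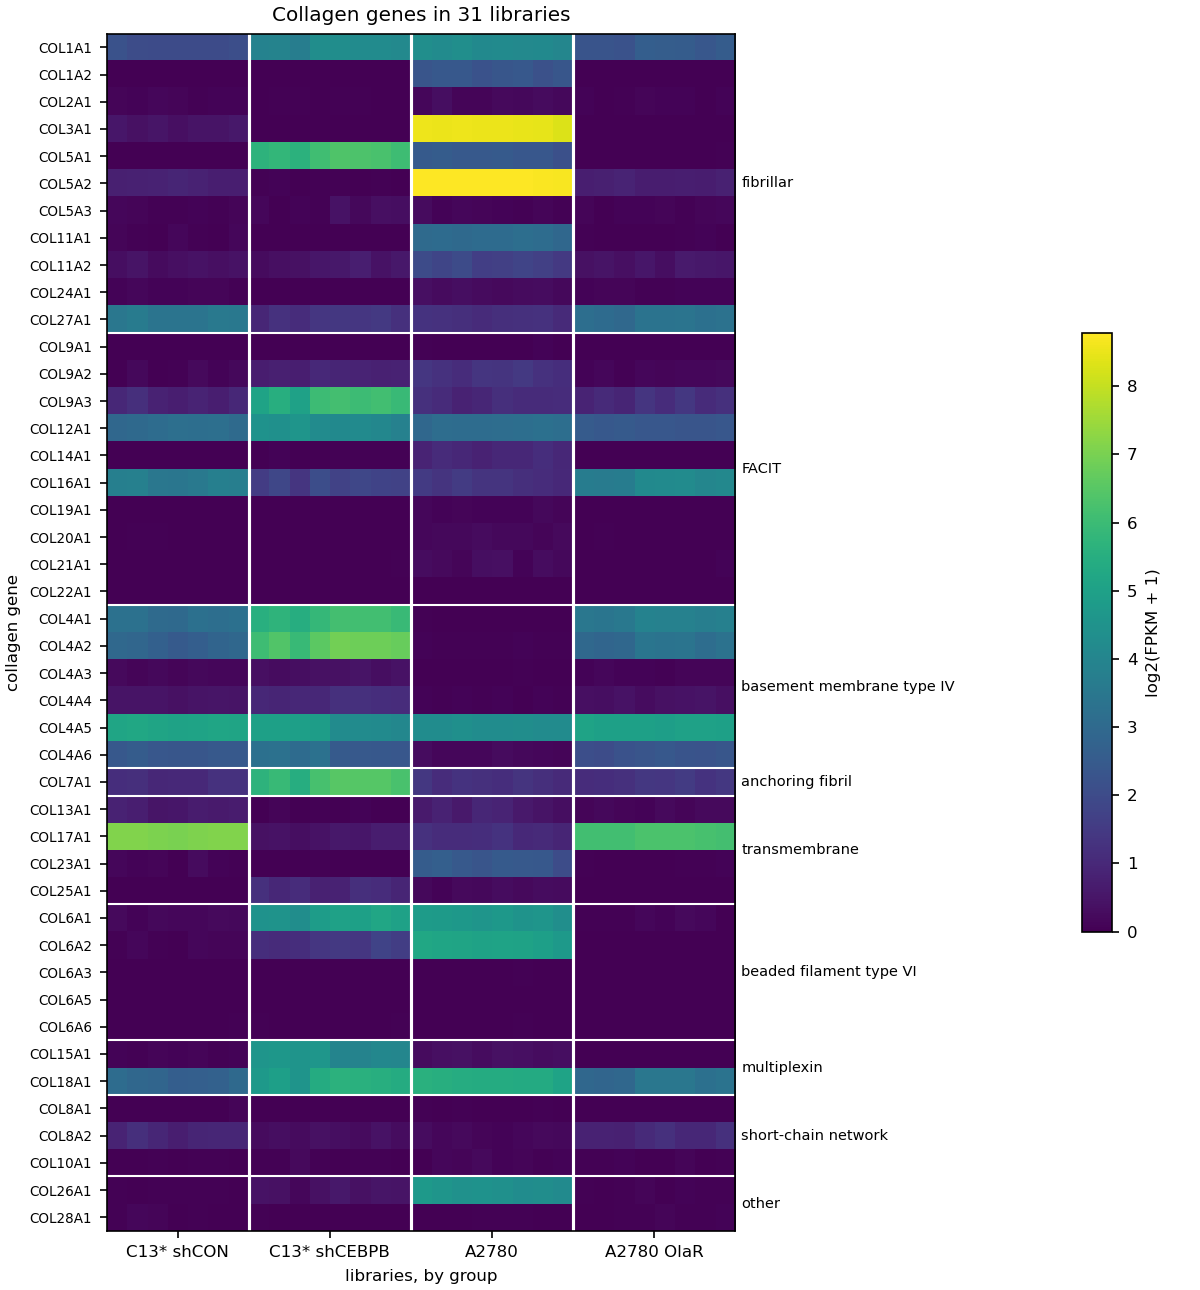
Levels of the 44 collagen genes (rows, by class) in the 31 libraries (columns, by group) as log2(FPKM + 1). The shCON and OlaR columns look alike, the brightest A2780 rows are COL3A1 and COL5A2, and the rows of COL4A1 and COL4A2 are dark in A2780.

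The first comparison, of libraries labelled shCEBPB with those labelled shCON, was designed to ask what knockdown of C/EBPβ did in C13*. Of the 44 genes, 16 reached 1 FPKM in enough libraries to be tested, and all 16 were called at an adjusted p under 0.05 (limma with Benjamini-Hochberg adjustment over all genes). Over all 12006 genes tested, 84.7% were called. Of the collagen calls 12 were higher in shCEBPB and 4 lower, against 38.9% and 45.7% of all genes. The libraries did not overlap in 15 of the 16, against 66.0% of all genes tested. In 5 of the 16, 1 group alone had reached the level, so these were bound to differ and the count is no support by itself. The median log2 fold change, given as a description, was 2.20 over the 16 and −0.07 over all genes tested.

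The second comparison, of libraries labelled OlaR with those labelled A2780, was designed to ask how the olaparib-resistant line differed from its parent. OlaR correlated with shCON above its labelled parent, as given above. Here 23 collagen genes were tested and 21 called, against 89.8% of 12458 genes. Of the calls 7 were higher in OlaR and 14 lower, where all genes gave 40.1% and 49.7%. The libraries did not overlap in 21 of the 23, against 74.1% of all genes tested. In 14 of the 23, 1 group alone had reached the level, so these were bound to differ and the counts are no support by themselves. The median log2 fold change, given as a description, was −1.29 over the 23 and −0.12 over all genes tested.

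Fold changes are given as differences of log2(FPKM + 1), which understate the change of low genes. With a pseudocount of 0.1 no call or direction changed, and the log2 value moved by over 1.5 times for 3 tested genes in the first comparison and 14 in the second. In shCEBPB these were COL5A1 (9.18 with 0.1), COL15A1 (6.87) and COL6A2 (3.32). In OlaR, COL9A2, COL1A2, COL5A1 and COL23A1 moved most, to −2.95, −5.35, −5.35 and −5.19, and COL4A1, COL4A2 and COL4A6 came to 6.81, 5.83 and 4.05. COL11A1, COL11A2, COL26A1, COL6A1 and COL6A2 came to −5.94, −2.36, −7.24, −7.15 and −8.33, and COL7A1 and COL9A3 to 0.15 and 0.10. For every gene whose libraries did not overlap, the exact two-sided permutation test gave p = 0.000311 in the first comparison and p = 0.000155 in the second, the smallest these group sizes allow.

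**Figure D4:**
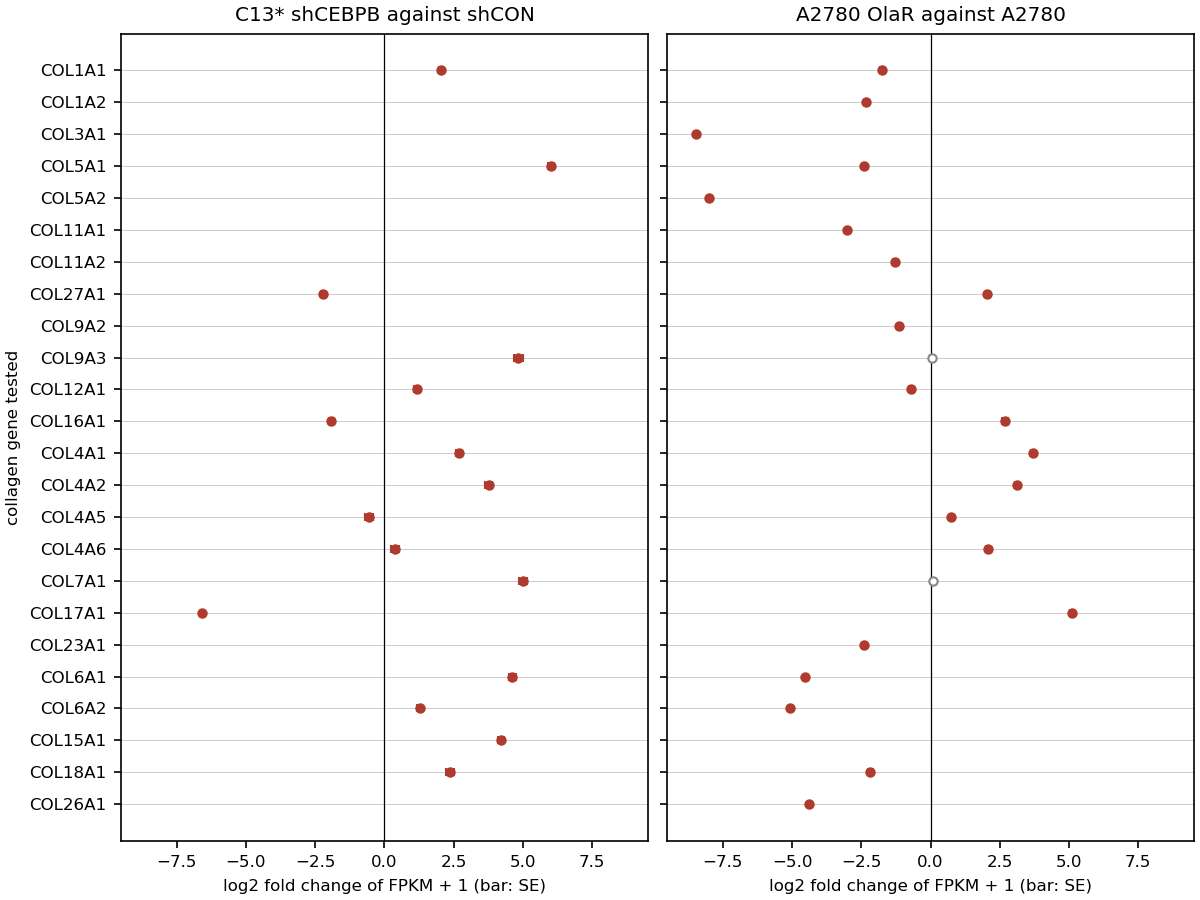
Log2 fold change of FPKM + 1 (x axis, point, with SE as bar) for every tested collagen gene (y axis) in both comparisons, filled where called. COL4A1, COL4A2, COL4A6, COL7A1 and COL9A3 lie right of 0 in both panels. COL7A1 and COL9A3 are open in the OlaR panel and filled in the shCEBPB panel.

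The genes called higher in both comparisons in the main fits were all type IV genes of the basement membrane. COL7A1 and COL9A3, called higher in shCEBPB, were also called higher in OlaR under quantile normalization and within library numbers 4 to 8. Within those library numbers COL4A6 lost its call in shCEBPB. COL4A1 and COL4A2 encode the chains of the most widespread type IV trimer. COL4A1 had 6.98, 8.38 and 8.74 FPKM (lowest, median, highest) in shCON and 43.4, 58.7 and 70.4 in shCEBPB, a log2 fold change of 2.69 (SE 0.10, adjusted p = 2.01e-14). In A2780 it was listed at 0 in 5 of 8 libraries and reached 0.0418 at most, and in OlaR it had 9.70, 12.9 and 13.9 FPKM, a log2 fold change of 3.69 (SE 0.07, adjusted p = 1.02e-20). The shCEBPB libraries lay above all others and the A2780 libraries below all others.

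COL4A2 followed its neighbour. Its levels were 4.63, 6.08 and 6.86 FPKM in shCON, 60.1, 99.0 and 119 in shCEBPB, at most 0.0548 in A2780 and 6.22, 8.36 and 9.63 in OlaR. The log2 fold change was 3.76 (SE 0.14, adjusted p = 1.72e-14) in shCEBPB and 3.11 (SE 0.07, adjusted p = 1.08e-18) in OlaR. COL4A2 thus stood above COL4A1 in the median of shCEBPB and below it in shCON and OlaR.

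COL4A5 and COL4A6, whose chains form another type IV trimer of epithelial basement membranes, behaved otherwise. COL4A5 was above 10 FPKM in all groups, with 32.5, 33.7 and 36.4 in shCON, 15.8, 23.4 and 31 in shCEBPB, 17.7, 18.4 and 19.8 in A2780 and 29.1, 30.8 and 33.1 in OlaR. It was lower in shCEBPB by a log2 fold change of −0.56 (SE 0.14, adjusted p = 0.00148) and higher in OlaR by 0.72 (SE 0.03, adjusted p = 1.98e-14). In neither comparison did its libraries overlap.

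COL4A6 had 4.04, 4.40 and 4.85 FPKM in shCON and 4.17, 5.96 and 8.70 in shCEBPB, with overlapping libraries. The log2 fold change of 0.40 (SE 0.15, adjusted p = 0.0176) was called, and the exact two-sided permutation p was 0.0416. In A2780 it had at most 0.237 FPKM and in OlaR 3.16, 3.82 and 4.38, a log2 fold change of 2.07 (SE 0.05, adjusted p = 1.43e-18). Every OlaR library was above every A2780 library.

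The shCEBPB libraries fell into sets of 4 for this pair. Replicates 1 to 4 had 30.8, 31, 29.9 and 28.7 FPKM of COL4A5 and replicates 5 to 8 had 18, 17.6, 17.2 and 15.8. COL4A6 had 8.43, 8.70, 7.31 and 8.59 FPKM in the first 4 and 4.61, 4.47, 4.38 and 4.17 in the others. COL15A1 showed the same break, with 22.3 to 24.1 FPKM in the first 4 and 14.3 to 15.9 in the others. The break was seen in the values and not used as a group. Within library numbers 1 to 3 of both groups the log2 fold change of COL4A6 was 0.74 (adjusted p = 2.46e-05), and within 4 to 8 it was 0.20 (adjusted p = 0.228), where the call was lost. For COL4A5 the values were −0.19 and −0.79, both called. The range 4 to 8 includes replicate 4, which is on the first side of the break, so its values mix both sets.

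COL4A3 and COL4A4, the chains of the kidney and lung basement membrane, were low throughout and were not tested. COL4A4 had 0.326 to 0.417 FPKM in shCON, 0.891 to 1.35 in shCEBPB, 0.0228 to 0.0736 in A2780 and 0.234 to 0.381 in OlaR. COL4A3 had at most 0.381 FPKM, in shCEBPB. Of its exonic bases 6.82% are shared with MFF-DT on the opposite strand, and whether counting used the strand is not given in the sources used here.

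**Figure D5:**
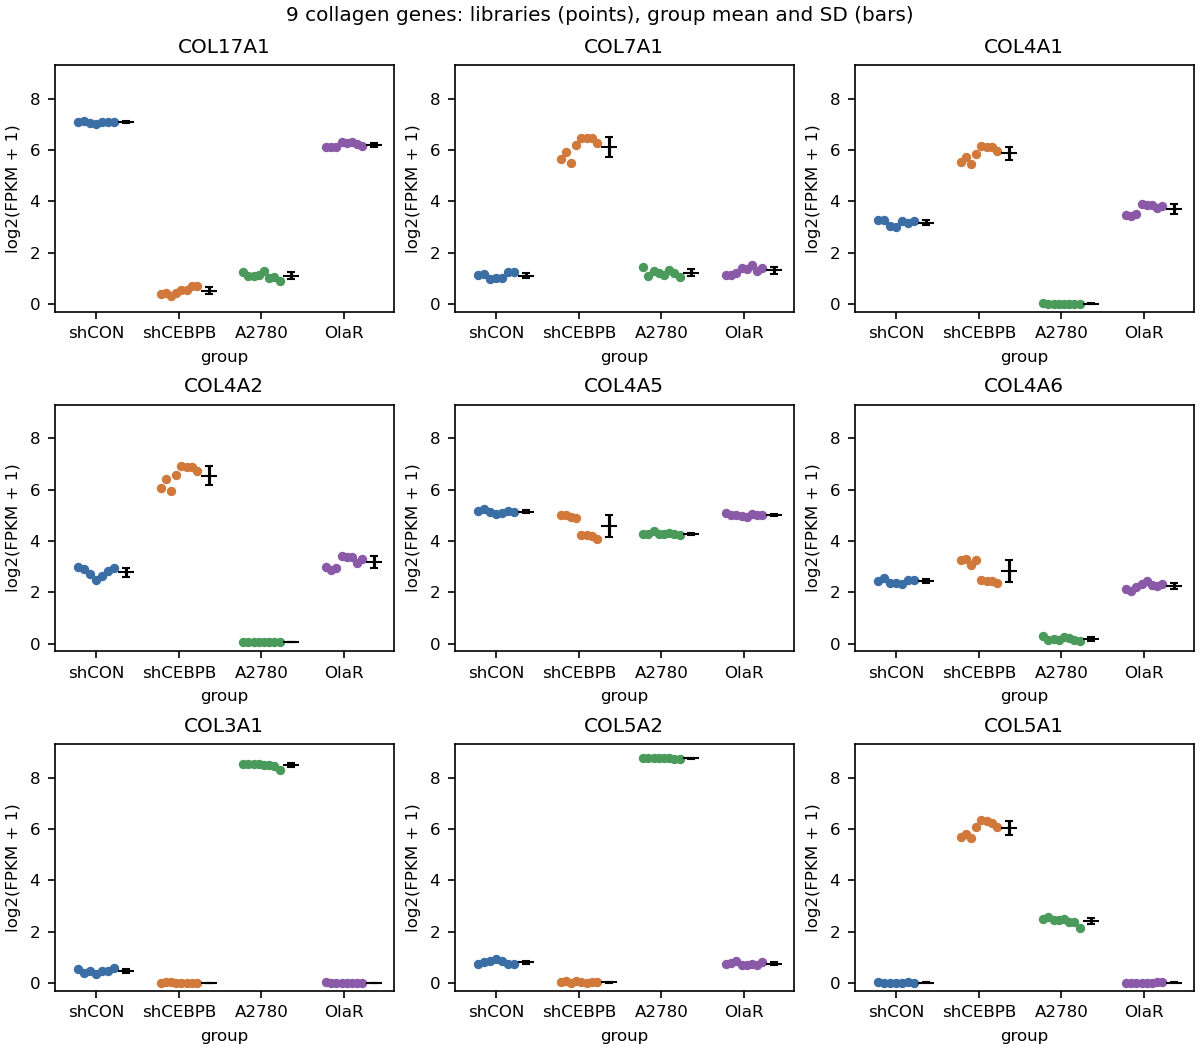
Log2(FPKM + 1) (y axis) of 9 collagen genes in the 31 libraries by group (x axis), 1 point a library, with the group mean and SD as bar. COL4A1 and COL4A2 are at or near 0 in A2780, COL17A1 is high in shCON and OlaR, and COL4A5 and COL4A6 split into sets of 4 in shCEBPB.

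The genes of epithelial anchorage changed in opposite ways in C13*. COL17A1, a transmembrane collagen of the hemidesmosome, had 127, 137 and 139 FPKM in shCON and 0.258, 0.405 and 0.630 in shCEBPB, a log2 fold change of −6.57 (SE 0.06, adjusted p = 1.51e-23). In A2780 it had 0.891, 1.16 and 1.45 FPKM and in OlaR 68.0, 72.3 and 77.5, a log2 fold change of 5.09 (SE 0.05, adjusted p = 1.59e-24). The gene was high in the 2 groups with squamous markers and low in the other 2. The part of those markers in the result was not tested.

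COL7A1 encodes the anchoring fibril, which ties the basement membrane to the fibrils below. It had 0.978, 1.20 and 1.37 FPKM in shCON and 43.8, 74.7 and 88.5 in shCEBPB, a log2 fold change of 5.0 (SE 0.14, adjusted p = 1.88e-16). In A2780 it had 1.09, 1.32 and 1.71 FPKM and in OlaR 1.17, 1.53 and 1.89. These libraries overlapped, and the log2 fold change of 0.09 (SE 0.06, adjusted p = 0.186) was not called. It was −0.12 within library numbers 1 to 3 and 0.22 within 4 to 8.

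The fibrillar genes COL3A1 and COL5A2 set A2780 apart, and not all genes of their class did. COL3A1, the chain of the thin fibrils of soft tissue, had 317, 364 and 373 FPKM in A2780 and at most 0.0206 in OlaR, a log2 fold change of −8.48 (SE 0.03, adjusted p = 1.80e-30). It had 0.279 to 0.493 FPKM in shCON and at most 0.0207 in shCEBPB. COL5A2, a chain of the type V collagen found in the core of fibrils, had 417, 432 and 439 FPKM in A2780 and 0.611, 0.668 and 0.816 in OlaR, a log2 fold change of −8.0 (SE 0.03, adjusted p = 8.69e-31). It was at 0.654 to 0.900 in shCON and at 0.0138 to 0.0491 in shCEBPB. The 2 genes lie tail to tail on chromosome 2, COL3A1 at 188974373 to 189012746 and COL5A2 at 189031898 to 189225312, with 19152 bp between them. Both were high in A2780 and below 1 FPKM elsewhere, and neither was tested in the first comparison.

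COL5A1, the partner of COL5A2 in the type V trimer, had a different pattern. It had at most 0.0213 FPKM in shCON and 49.4, 66.5 and 81.2 in shCEBPB, a log2 fold change of 6.02 (SE 0.10, adjusted p = 1.01e-19). In A2780 it had 3.40, 4.44 and 4.91 FPKM and in OlaR at most 0.0303, a log2 fold change of −2.40 (SE 0.05, adjusted p = 4.82e-20). COL5A1 was therefore high where COL5A2 was below 0.05 FPKM, and in A2780 it stood far below COL5A2. COL5A3, the remaining type V chain, had at most 0.351 FPKM in any library.

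COL1A1 and COL1A2 encode the chains of type I collagen, the main fibril protein of bone and skin. COL1A1 had 2.98, 3.06 and 3.63 FPKM in shCON and 12.3, 17.0 and 18.8 in shCEBPB, a log2 fold change of 2.03 (SE 0.08, adjusted p = 7.41e-14). It had 15.2, 17.2 and 19.4 FPKM in A2780 and 3.63, 4.54 and 5.12 in OlaR, a log2 fold change of −1.76 (SE 0.07, adjusted p = 2.24e-15). The shCEBPB and A2780 ranges overlapped, and both lay above shCON and OlaR.

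COL1A2 reached 1 FPKM in A2780 alone, with 3.52, 4.08 and 4.37 FPKM. It was listed at 0 in 6 of 7 shCON, all 8 shCEBPB and 7 of 8 OlaR libraries. The log2 fold change in OlaR was −2.33 (SE 0.04, adjusted p = 1.87e-21). COL1A1 and COL1A2 thus did not move together in C13*.

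Among the other fibrillar genes, COL11A1 and COL11A2, chains of the minor fibrillar collagen of cartilage, were tested in the second comparison only. COL11A1 had 6.69, 7.35 and 7.98 FPKM in A2780 and at most 0.0564 in OlaR, and COL11A2 had 1.78, 2.32 and 3.05 and then 0.248, 0.413 and 0.554. Both were lower in OlaR, with log2 fold changes of −3.02 and −1.29 (SE 0.03 and 0.07, adjusted p = 7.33e-24 and 1.35e-12). COL27A1, a fibrillar gene with a shorter helix, ran the other way. It had 9.39, 10.2 and 11.6 FPKM in shCON, 0.921, 1.5 and 1.75 in shCEBPB, 1.05, 1.30 and 1.43 in A2780 and 6.87, 8.67 and 9.46 in OlaR. The log2 fold change was −2.21 in shCEBPB and 2.05 in OlaR (SE 0.07 and 0.06, adjusted p = 4.05e-15 and 2.53e-17). COL2A1 and COL24A1 had at most 0.261 and 0.278 FPKM, both in A2780.

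Among fibroblast and pericyte markers, THY1, LUM and DCN alone were above 1 FPKM in A2780. The 7 markers PDGFRA, PDGFRB, THY1, LUM, DCN, FAP and RGS5 summed to 15.8 to 21.0 FPKM in A2780, 3.57 to 5.27 in shCEBPB, 0.237 to 0.374 in shCON and 0.266 to 0.578 in OlaR. In A2780, 3 of the 7 had a median of at least 1 FPKM, and LUM and DCN stood highest. PDGFRA, which defines many fibroblasts, had at most 0.130 FPKM. PDGFRB went the other way, with 3.17 to 4.86 FPKM in shCEBPB and 0.0846 to 0.205 in A2780. Median RGS5 was 0.250 FPKM in shCON, 0.354 in shCEBPB, 0.273 in A2780 and 0.272 in OlaR. LUM was listed at 0 in every library of the other 3 groups. In bulk libraries, more cells of a type and more RNA per cell cannot be told apart, and the part of these markers in the result was not tested.

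Type VI collagen forms beaded filaments around cells from 3 different chains. COL6A1 had 0.0623, 0.128 and 0.176 FPKM in shCON and 18.6, 29.3 and 35.2 in shCEBPB, a log2 fold change of 4.62 (SE 0.11, adjusted p = 3.90e-17). It had 19.5, 23.7 and 27.3 FPKM in A2780 and at most 0.169 in OlaR, a log2 fold change of −4.52 (SE 0.06, adjusted p = 4.96e-23). COL6A1 was high in shCEBPB and A2780, with overlapping libraries, and low in the other 2 groups.

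COL6A2, which lies 93062 bp from COL6A1 on chromosome 21 in the same direction, had 1.12, 1.61 and 2.37 FPKM in shCEBPB and 26.2, 32.7 and 36.8 in A2780. In shCON it had at most 0.122, and OlaR was listed at 0 in 7 of 8 libraries. The log2 fold changes were 1.27 (SE 0.09, adjusted p = 1.19e-10) and −5.06 (SE 0.05, adjusted p = 2.48e-24). The level of COL6A2 was near that of COL6A1 in A2780 and far below it in shCEBPB. COL6A3, the largest chain, had at most 0.0320 FPKM in any library, COL6A5 at most 0.00486 and COL6A6 at most 0.0457.

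FACIT collagens sit on the surface of fibrils. COL9A3, a chain of type IX collagen of cartilage, had 0.661, 0.842 and 1.26 FPKM in shCON and 31.5, 62.3 and 70.3 in shCEBPB, a log2 fold change of 4.83 (SE 0.16, adjusted p = 5.03e-15). In A2780 and OlaR it had 0.810 to 1.35 and 0.843 to 1.69 FPKM, which overlapped, and the log2 fold change of 0.06 (SE 0.07, adjusted p = 0.415) was not called. Its partner COL9A2 had 0.616 to 1.01 FPKM in shCEBPB and at most 0.156 in shCON and was not tested there. COL9A2 had 1.17, 1.46 and 1.72 FPKM in A2780 and 0.0440, 0.115 and 0.145 in OlaR, a log2 fold change of −1.15 (SE 0.04, adjusted p = 3.28e-15). COL9A1 was listed at 0 in all libraries outside A2780, and so COL9A3 was high in shCEBPB with little mRNA of either partner.

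COL12A1, which bridges fibrils, had 6.64, 7.58 and 8.31 FPKM in shCON, 13.5, 17.7 and 23.2 in shCEBPB, 6.71, 7.76 and 8.41 in A2780 and 4.01, 4.22 and 4.76 in OlaR. It rose in shCEBPB by a log2 fold change of 1.16 (SE 0.09, adjusted p = 1.36e-09) and changed by −0.72 (SE 0.04, adjusted p = 4.32e-12) in OlaR. shCON and A2780 overlapped, and shCEBPB and OlaR stood above and below them.

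COL16A1, another fibril-associated gene, ran with COL17A1 and COL27A1. It had 9.87, 12.5 and 13.3 FPKM in shCON, 1.54, 2.36 and 3.24 in shCEBPB, 1.03, 1.48 and 1.85 in A2780 and 11.6, 15.6 and 17.8 in OlaR. The log2 fold changes were −1.91 (SE 0.10, adjusted p = 1.51e-12) and 2.68 (SE 0.10, adjusted p = 1.14e-15). shCON and OlaR were high, and shCEBPB and A2780 were low.

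COL15A1 and COL18A1 are the multiplexins, basement membrane collagens that carry glycosaminoglycans, and the end of the type XVIII chain is released as endostatin. COL15A1 had at most 0.0893 FPKM in shCON and 14.3, 19.1 and 24.1 in shCEBPB, a log2 fold change of 4.21 (SE 0.11, adjusted p = 1.15e-16). It reached 0.311 at most in A2780 and 0.0235 in OlaR and was not tested there. COL15A1 was thus above 1 FPKM in shCEBPB only.

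COL18A1 had 5.17, 6.21 and 7.63 FPKM in shCON and 22.1, 41.0 and 49.2 in shCEBPB, a log2 fold change of 2.36 (SE 0.15, adjusted p = 7.54e-11). It had 33.0, 41.6 and 46.2 FPKM in A2780 and 6.36, 8.84 and 10.1 in OlaR, a log2 fold change of −2.17 (SE 0.10, adjusted p = 2.87e-14). High and low groups did not overlap. Of the exonic bases of COL18A1, 1563 bp (18.5%) are shared with SLC19A1 on the opposite strand, so reads of that gene could be among these values.

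COL26A1, a short collagen-like gene first known from testis and ovary, had 17.6, 20.6 and 25.1 FPKM in A2780 and at most 0.0772 in OlaR, a log2 fold change of −4.38 (SE 0.06, adjusted p = 8.86e-23). It had 0.119 to 0.485 FPKM in shCEBPB and at most 0.0440 in shCON. COL23A1, a transmembrane collagen, had 3.11, 4.51 and 5.38 FPKM in A2780 and at most 0.0502 in OlaR, a log2 fold change of −2.39 (SE 0.06, adjusted p = 7.67e-18). A2780 alone held these genes above 1 FPKM.

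The remaining genes were low in every group. COL8A2 reached 1.34 FPKM in OlaR, COL25A1 1.33 in shCEBPB, COL14A1 1.20 in A2780 and COL13A1 0.938 in A2780. The highest library values of COL21A1, COL20A1, COL10A1, COL19A1, COL28A1 and COL8A1 were 0.292, 0.199, 0.162, 0.150, 0.116 and 0.0817 FPKM. COL22A1 was listed at 0 in all 31 libraries.

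There were 13 genes called in both comparisons. These shared no library, but shCON, the baseline of the first, and OlaR, set against the baseline of the second, were alike (median r of 0.994), so their signs are tied and are given as a description. COL4A1, COL4A2 and COL4A6 were higher in both shCEBPB and OlaR, and no gene was lower in both. Higher in shCEBPB and lower in OlaR were 6 genes, COL1A1, COL5A1, COL6A1, COL6A2, COL12A1 and COL18A1. COL4A5, COL16A1, COL17A1 and COL27A1 were lower in shCEBPB and higher in OlaR. Opposite signs were seen in 76.9% of the 13, against 65.0% of the 8779 genes called in both comparisons.

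Libraries numbered 1 to 3 and 4 to 8 by their codes differed within groups. Of the 18 collagen genes with a group mean of at least 10 FPKM, 10 were higher and 2 lower in numbers 4 to 8 of shCEBPB, without overlap. OlaR gave 9 and 1, A2780 gave 0 and 5, and shCON gave 0 of either. Over the 8737 genes of that level in the table, 28.2% were higher and 27.5% lower in shCEBPB, 28.7% and 32.2% in OlaR, 9.89% and 13% in A2780 and 2.33% and 2.08% in shCON. COL9A3 in shCEBPB had 31.5 to 44.5 FPKM in numbers 1 to 3 and 60.5 to 70.3 in 4 to 8, and COL18A1 22.1 to 30.3 and 41.0 to 49.2. The change in shCEBPB was called within both ranges for both genes, with log2 fold changes of 4.21 and 5.22 for COL9A3 and 1.77 and 2.74 for COL18A1. The labels do not say what the numbers stand for.

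The genes that make, cut, bind and break down collagen were counted from a list of 95. In shCEBPB 66 were tested and 61 called, 42 higher and 19 lower, with a median log2 fold change of 0.73 over those tested and −0.07 over all genes. Over all genes 84.7% were called there, 38.9% higher and 45.7% lower, so the share called among the listed genes was near the background. In OlaR 69 were tested and 66 called, 19 higher and 47 lower, with a median of −0.78 beside −0.12, where 89.8% of all genes were called, 40.1% higher and 49.7% lower. The same shares are the background of the counts of each of the 7 lists that follow, which are given as a description. The genes named from these lists were called with an adjusted p of 7.60e-08 or lower, and their libraries did not overlap. Some of them, such as PXDN, TGFBR2, MMP1 and DCN, reached 1 FPKM in 1 group alone of a comparison. Those were bound to differ, and their calls are no support by themselves. How many listed genes this holds for was not counted. Of the hydroxylation and folding list, 13 were called higher and 4 lower among 18 tested in shCEBPB, and 3 higher and 16 lower among 19 in OlaR. FKBP10, a folding helper of the endoplasmic reticulum, had 1.28, 1.87 and 1.97 FPKM in shCON, 88.5, 117 and 126 in shCEBPB, 194, 227 and 241 in A2780 and 1.12, 1.72 and 2.29 in OlaR. It was high in shCEBPB and A2780, as COL6A1 was. P4HA3, a prolyl hydroxylase subunit, rose from a median of 0.123 to 9.82 FPKM in shCEBPB, and P3H4, of the hydroxylation complex, from 8.41 to 29.8. P3H3 and COLGALT2, which add hydroxyl and sugar groups, fell in OlaR from medians of 24.1 and 17.5 FPKM to 0.0251 and 0.0298.

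Of the secretion and cleavage list, 6 were called higher and 4 lower among 11 tested in shCEBPB, and 2 higher and 9 lower among 11 in OlaR. FURIN, which activates propeptide-cleaving enzymes, rose from a median of 6.93 to 46.3 FPKM in shCEBPB and fell from 22.4 to 5.04 in OlaR. TLL1, a procollagen proteinase, rose from 0.0778 to 5.03 in shCEBPB, and MIA2, an export factor, fell from 17.6 to 5.62. PCOLCE, an enhancer of procollagen cleavage, fell from 64.4 to 3.84 in OlaR, and CREB3L1, a transcription factor of secretory genes, from 3.66 to 0.0211.

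Cross-linking genes gave 3 higher and 3 lower of 7 tested in shCEBPB and 3 higher and 2 lower of 5 in OlaR. PXDN, the peroxidasin that forms sulfilimine bonds in type IV collagen, was listed at 0 in every shCON library and had 44.7, 50.4 and 55.1 FPKM in shCEBPB. TGM2, a transglutaminase, rose from a median of 0.389 to 13.8 FPKM in shCEBPB and fell from 2.51 to 0.409 in OlaR. LOXL2, a lysyl oxidase, fell from 69.7 to 45.6 in shCEBPB, while its relatives LOXL4 and LOX rose in OlaR from 0.0323 to 2.65 and from 1.01 to 5.01.

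Receptors gave 3 higher and 2 lower of 6 tested in shCEBPB, and 3 higher and 4 lower of 7 in OlaR. MRC2, which takes up collagen, rose from a median of 1.08 to 27.0 FPKM in shCEBPB and fell from 49.8 to 1.46 in OlaR. DDR1, a collagen-binding kinase, fell from 121 to 24.1 in shCEBPB, and ITGA1, an integrin chain, rose from 1.35 to 4.63. DDR2, the kinase that binds fibrillar collagen, fell from 55.6 to 0.0298 in OlaR, where ADGRG1, a receptor of type III collagen, rose from 2.20 to 36.8.

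Degrading enzymes gave 2 higher and 3 lower of 6 tested in shCEBPB, and 4 higher and 3 lower of 7 in OlaR. MMP14, a membrane-bound collagenase, had 76.9, 88.2 and 90.0 FPKM in shCON and at most 0.197 in shCEBPB, and 2.32, 2.72 and 3.23 in A2780 and 69.6, 81.4 and 92.4 in OlaR. It was high in shCON and OlaR, as COL17A1 was. MMP1, which cuts fibrillar collagen, had 516, 535 and 603 FPKM in A2780 and at most 0.0292 in OlaR. MMP13 fell in OlaR from a median of 1.92 to 0.0472, and in shCEBPB MMP9 rose from 0.148 to 2.79, while MMP16 went from 1.15 to listed at 0 in every library.

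Matrix proteins that bind collagen gave 4 higher and 2 lower of 6 tested in shCEBPB, and 3 higher and 4 lower of 8 in OlaR. THBS1, a thrombospondin, fell from a median of 75.8 to 5.08 FPKM in shCEBPB and rose from 0.351 to 90.4 in OlaR. NID2, a basement membrane linker, rose from 0.464 to 8.53 in shCEBPB, and COMP, a cartilage fibril protein, from 0.0357 to 3.63. COMP and DCN, a proteoglycan on fibrils, had medians of 19.6 and 9.48 FPKM in A2780 and were listed at 0 in every OlaR library.

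TGF-β ligands, receptors and mediators, which drive collagen transcription in many cells, gave 11 higher and 1 lower of 12 tested in shCEBPB, where 38.9% of all genes were higher, and 1 higher and 9 lower of 12 in OlaR, where 49.7% of all genes were lower. TGFBR2, the type II receptor, was listed at 0 in every shCON library and had 9.0, 11.4 and 13.8 FPKM in shCEBPB. CTGF, a matrix-associated mediator, rose from a median of 5.06 to 52.0 FPKM in shCEBPB and fell from 173 to 9.72 in OlaR. SMAD7, an inhibitor of the pathway, rose from 2.18 to 17.6 in shCEBPB. TGFB2, a ligand, fell from 22.3 to 1.30 in OlaR, and SKIL, a repressor of SMADs, from 23.5 to 3.08.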

How the data were processed

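RNA of 4 groups of cell lines was sequenced, and 31 libraries were used. Per the study's methods, paired-end reads were aligned to hg38 by TopHat, and HTSeq gave the counts per gene. The values that the authors deposited are FPKM in 1 table. The tool and annotation behind the FPKM, and whether strand was used, are not given in the sources used here. After dropping 4 entries whose symbol occurred more than once, 19221 genes remained. The study's methods give at least 6 Gb of sequence per sample. The values hold no read totals per library, so no counting error is given.

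Groups were compared with R 4.3.3 and limma 3.58.1 (lmFit, eBayes with trend) on log2(FPKM + 1). The test was two-sided, p-values were adjusted by Benjamini-Hochberg over all genes tested, and a gene was tested where no fewer libraries than the smaller group contains had 1 FPKM or more. A gene was called at an adjusted p under 0.05. Single genes also had an exact permutation test. The fit was tested on simulated data. The remaining steps ran in Python 3.11.15 (pandas 2.3.3, numpy 2.4.6, matplotlib 3.10.9, scipy 1.17.1). Positions and exons came from GENCODE 44 by symbol, which matched all 44 collagen genes. Promoter windows came from RefSeq (GRCh38.p14).

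Collagen genes were described in full if a group mean reached 10 FPKM or if they share a trimer or promoter with such a gene. The others are given by their highest value, except that COL11A1, COL11A2 and COL23A1 got their values after these were seen. From each list of the collagen pathway the 3 called genes with the largest fold change in each comparison are named, so that these examples had to change. The members and lists were chosen with earlier results of these data known. Alternatives were a pseudocount of 0.1, no filter and a filter at 5 FPKM, quantile normalization, scaling to a common sum, a replicate block, 1 fit with all 4 groups, library numbers 1 to 3 and 4 to 8 apart, and a minimum fold change of 2.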

Additional observations from a re-analysis of the deposited data

Results flagged for a closer look

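A single library stood far from the other 7 of its group in 4 of the 56 gene and group values tested with Dixon's criterion, at which chance marks about 1 group in 20. In A2780 replicate 8, COL18A1 had 33.0 FPKM where the others had 40.0 to 46.2. The same library had 317 FPKM of COL3A1 where the others had 350 to 373, and 3.40 FPKM of COL5A1 where the others had 4.21 to 4.91. In A2780 replicate 3, COL4A5 had 19.8 FPKM where the others had 17.7 to 18.6. All of these libraries stayed on their group's side of the comparison with OlaR.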

How the results depend on the processing

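The count of collagen genes called moved by more than 1.5 times only without the filter on low FPKM, to 31 (18 higher, 13 lower, of 41 tested) in shCEBPB and 33 (10 higher, 23 lower, of 42) in OlaR, since more genes were tested. With calls limited to changes of 2-fold or more, pathway calls fell to 30 (24 higher, 6 lower) and 41 (10 higher, 31 lower), and calls over all genes to 3539 and 4446, by the stricter rule itself. Single collagen genes kept direction and call in 141 of 142 alternative values in shCEBPB and in 193 of 199 in OlaR. Part of these counts was fixed in advance. Without the filter, with the filter at 5 FPKM and with 1 fit of all 4 groups, the log2 value stays the same and only the call can change. The same holds for the replicate block in OlaR. A pseudocount of 0.1 changed no call but moved the log2 value by over 1.5 times for 3 and 14 genes (by up to 2.61 and 2.57 times). The lost call was COL4A6 within library numbers 4 to 8. In OlaR, COL7A1 and COL9A3 turned to −0.12 and −0.10 within library numbers 1 to 3, uncalled, and became called under quantile normalization (0.27 and 0.25) and within numbers 4 to 8 (0.22 and 0.16); the cause was not tested. With the replicate number as a block, 16 and 21 collagen genes and 60 and 66 pathway genes were called. Libraries of the same replicate number did not deviate together on average over the genes tested. Their mean r was −0.148 and −0.233, with single pairs from −0.512 to 0.462 and from −0.589 to 0.125. For other numbers the means were 0.0234 and 0.0370. Deviations were taken from group means, so these means are tied to the former and are no separate reference. The replicate numbers are those of the titles, and shCON replicates 6 and 7 carry the codes 7 and 8. Whether same-numbered libraries share a culture or a batch was not tested. FPKM give no read totals, so differences among genes near 0 have no detection limit here.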
